A study of Homo sapiens with 6 samples.

Results

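The genes described here make, carry and display the peptides of major histocompatibility complex (MHC) class I. They were taken as the probe sets whose symbol in the platform annotation is PSMB8, PSMB9, TAP1, TAPBP, ERAP1, ERAP2, HLA-C, HLA-F, B2M or NLRC5, which gave 10 probe sets, 1 for each gene, of 21448 probe sets and 17687 named genes on the array. Their mRNA was measured in KM12SM and SW620, a pair of human colorectal cancer cell lines, with 3 Clariom S arrays per line and no treatment. KM12SM is a liver-metastatic line selected in mice from KM12, a colorectal line known for its mismatch repair deficiency, and SW620 came from a lymph node metastasis. Both were grown in DMEM with fetal bovine serum and antibiotics. Each group is a single cell line, so a difference between them belongs to these lines and cannot be assigned to metastatic capacity or to repair status. Whether the 3 RNA preparations of a line, called independent in the methods, came from separate cultures was not stated, and the p-values cover only the spread between these preparations, which may be technical.

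MHC class I molecules present short peptides from the inside of the cell to CD8 T cells and to natural killer cells. The proteasome cuts proteins into peptides, and the immunoproteasome, whose catalytic subunits include PSMB8 and PSMB9, favours fragments that fit class I. The transporter TAP1 with TAP2 moves peptides into the endoplasmic reticulum, where ERAP1 and ERAP2 trim their amino end and tapasin (TAPBP) helps load them. The loaded complex is made of a polymorphic heavy chain such as HLA-C and the light chain beta-2-microglobulin (B2M). Most of these genes respond to interferon, and NLRC5 is a transactivator that acts at class I promoters. In colorectal tumours with mismatch repair deficiency, loss of parts of this pathway is a well known route of escape from T cells.

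The promoters show what most of the genes share at the sequence level. RefSeq promoter windows, from 250 bases before to 50 bases after an annotated start, were at hand for 9 of the 10 genes, in 13 windows (GRCh38.p14). The letters GAAANNGAA, the core of an interferon response element to which IRF factors bind, were found on either strand in at least 1 window of PSMB8, TAP1, TAPBP, ERAP1, ERAP2, HLA-F and B2M. That is 7 of 9 genes and 7 of 13 windows, where 8.11% of all 35116 windows and 9.86% of all 27305 genes of the table hold these letters. Most of these genes respond to interferon, and genes and letters were chosen with earlier results of these data known. The larger share is therefore no independent result. The stretches around them are shown, 5′ to 3′ on the strand of the gene, with positions counted from the start of the transcript. Capitals mark GAAANNGAA, GGGACTTTC (an NF-kappaB type site), TGACG (a CRE-like core) and CCAAT (the core of the Y box), each on either strand.
PSMB8 (chr6:32844038-32844117, minus strand, from -70 to +10): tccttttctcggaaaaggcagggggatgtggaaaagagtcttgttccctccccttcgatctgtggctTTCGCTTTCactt
TAP1 (chr6:32853759-32853844, minus strand, from -140 to -55): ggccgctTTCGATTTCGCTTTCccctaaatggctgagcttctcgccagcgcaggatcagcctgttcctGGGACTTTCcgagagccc
TAPBP (chr6:33314079-33314138, minus strand, from -60 to -1): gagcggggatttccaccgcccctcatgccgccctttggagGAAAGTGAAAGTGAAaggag
ERAP1 (chr5:96807934-96808005, minus strand, from -60 to +12): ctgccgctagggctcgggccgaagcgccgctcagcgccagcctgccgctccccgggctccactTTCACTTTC
ERAP2 (chr5:96876440-96876499, plus strand, from -60 to -1): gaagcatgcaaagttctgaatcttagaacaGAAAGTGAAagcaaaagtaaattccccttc
B2M (chr15:44711367-44711477, plus strand, from -150 to -40): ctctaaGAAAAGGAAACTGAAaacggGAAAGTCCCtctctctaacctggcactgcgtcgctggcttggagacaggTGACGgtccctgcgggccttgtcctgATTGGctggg

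In TAP1, TAPBP and B2M the element was present as a pair of overlapping matches, on the minus strand at -133 to -119 in TAP1 and on the plus strand at -20 to -6 in TAPBP and at -144 to -130 in B2M. In PSMB8, ERAP1 and ERAP2 the match lay close to an annotated start. PSMB8, TAP1, ERAP1 and ERAP2 have 2 windows each, and in each of these genes only 1 of them held the letters. GGGACTTTC was found in TAP1 and B2M, 2 of the 9 genes, and in 0.387% of all windows. The stretches of the heavy chain genes HLA-F and HLA-C are shown because their mRNA differed in the opposite direction to that of the genes above.
HLA-F (chr6:29723274-29723389, plus strand, from -160 to -45): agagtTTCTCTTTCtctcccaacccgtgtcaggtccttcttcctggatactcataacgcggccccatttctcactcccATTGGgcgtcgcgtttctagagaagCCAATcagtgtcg
HLA-C (chr6:31272132-31272292, minus strand, from -200 to -40): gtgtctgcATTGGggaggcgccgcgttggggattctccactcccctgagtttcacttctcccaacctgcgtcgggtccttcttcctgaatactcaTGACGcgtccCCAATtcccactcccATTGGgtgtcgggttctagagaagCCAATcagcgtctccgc

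HLA-C carried 4 CCAAT matches and a TGACG match, and HLA-F 2 CCAAT matches downstream of its GAAANNGAA match. CCAAT was present in 6 of 9 genes and in 34.6% of all windows, and TGACG in 4 of 9 genes and 24.6% of windows, so that these short letters are common everywhere. No GAAANNGAA was found in the windows of HLA-C and PSMB9. Only these exact letters were searched, so an element that departs from them was not counted. The HLA-C stretch has similar but not identical letters at the place of the HLA-F match. The lack of a match is therefore not the lack of an interferon response element. TAP1 and PSMB9 lie head to head with 488 bases between their starts, and the GAAANNGAA and GGGACTTTC matches of TAP1 are within that segment but outside the window of PSMB9. The CCAAT matches of TAP1 and PSMB9 are 1 and the same site, counted for both genes. These letters come from the reference genome and not from the 2 lines, and binding of any factor to them was not measured here.

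**Figure D1:**
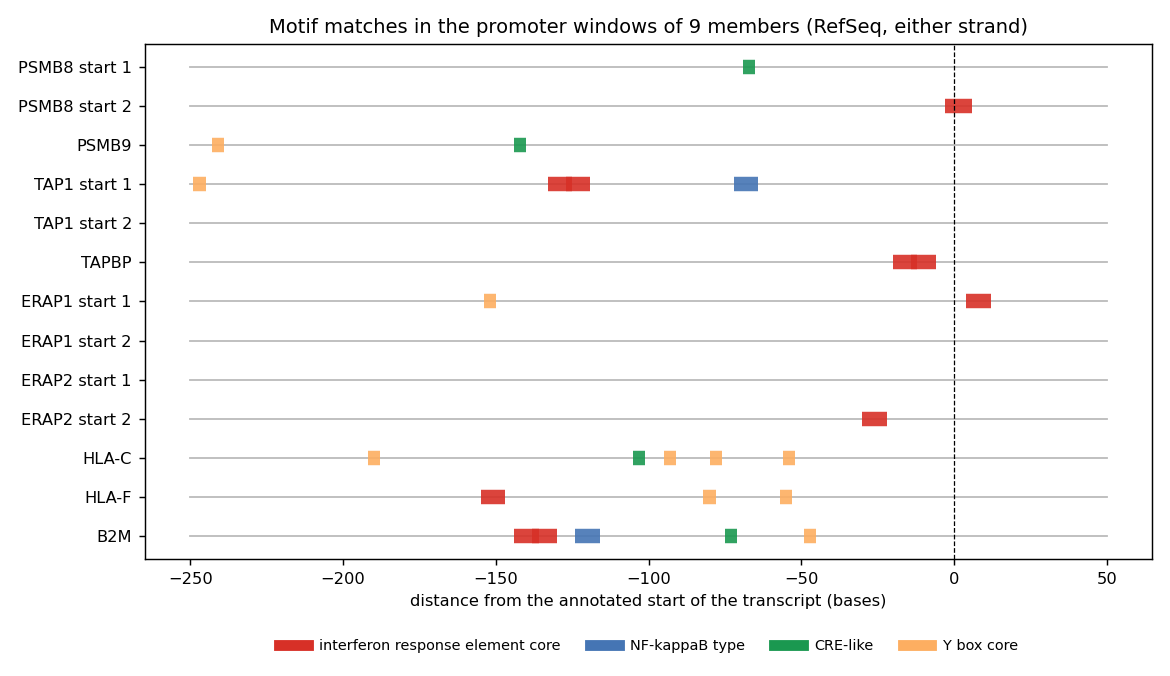
Positions of motif matches (coloured blocks, either strand) in the 13 promoter windows of 9 genes, with the distance from the annotated start in bases on the horizontal axis. GAAANNGAA matches (red) occur in 7 of the 9 genes, and GGGACTTTC (blue) in TAP1 and B2M.

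Of the 10 genes, 7 were higher in KM12SM (PSMB8, PSMB9, TAP1, TAPBP, ERAP1, ERAP2 and NLRC5), 2 were lower (HLA-C and HLA-F) and B2M did not pass the test. A gene was called at an adjusted p under 0.05 from limma, with adjustment over all 21448 probe sets. The share called among all probe sets was 25%, with 12.6% higher and 12.4% lower. No overlap between the 2 lines was seen in any of the 10 genes, with KM12SM above in 8 and below in 2, where 37.7% of all probe sets had no overlap (19.1% above and 18.6% below). At least 2-fold differences were seen for 7 of the genes and for 10.5% of all probe sets. The median log2 difference, KM12SM minus SW620, was 1.01 over the 10 genes and 0.01 over all probe sets.

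The arrays correlated at 0.981 to 0.992 within a line and at 0.920 to 0.926 between the lines (Pearson r over all probe sets), with median log2 signals of 6.71 to 6.78. Within each line, replicates 1 and 2 were the closest pair (0.992 in both), and replicate 3 correlated with them at 0.981 to 0.986. In KM12SM, replicate 3 was below the mean of replicates 1 and 2 for 7 of the 10 genes, and most for PSMB9 (-1.30) and TAPBP (-0.75) on the log2 scale. Over all probe sets, 46.4% were below in the same way. In SW620, replicate 3 was also below for 7 of the 10 genes, and most for ERAP2 (-1.13) and ERAP1 (-0.46). There 54.5% of all probe sets were below. Without replicate 3 of both lines, 7 members were higher and 2 lower, with B2M gained (adjusted p = 0.0359 from limma) and NLRC5 lost (0.117). Of 6 measured colon epithelium markers 3 were higher in KM12SM, 1 was lower and 2 did not pass. The share called was 66.7%, and 25% over all probe sets. EPCAM had mean log2 signals of 11.9 in KM12SM and 11.7 in SW620 and KRT8 12.7 and 12.4, and neither passed. CDH1, the E-cadherin of epithelial junctions, was at 9.25 in KM12SM and at 5.55 in SW620, under the median signal of the SW620 arrays. The other calls were CDX2 (0.94) and KRT18 (0.52), which were higher, and VIL1 (-0.81), which was lower. KRT18 did not pass without KM12SM replicate 1 or 2 or without any 1 of the SW620 arrays (adjusted p = 0.0548 to 0.179 in limma). The part of these differences in the results was not tested. Leukocytes are rich in class I and immunoproteasome transcripts, and their defining marker PTPRC was dim at a log2 signal of 3.93 and 3.90. Of 11 measured leukocyte markers, 10 did not differ past the threshold. The exception was LYZ (6.76 higher in KM12SM), a lysozyme that secretory epithelium also makes. The mean log2 signal of the 11 markers, LYZ included, was 6.10 to 6.22 in KM12SM and 5.50 to 5.74 in SW620. LYZ alone had means of 12.6 and 5.80, and the median difference of the list was -0.06. Under the 25th percentile of all probe sets were 4 of the markers. In both lines, the means of ITGAX (7.45 and 7.50), TYROBP (7.42 and 7.44) and NKG7 (7.16 and 7.22) were above the array medians. Whether these signals were above background was not tested. Per the methods these were cultures of lines authenticated by short tandem repeats, so other cell types are no part of the design. The presence of other cells in the cultures was not tested. A difference in the share of cells that express a gene and one in the RNA per cell cannot be told apart in such bulk samples. Of 7 fibroblast markers 6 did not pass, and LUM was lower in KM12SM by 5.43. With LUM included, the mean of the list was 5.66 to 5.73 in KM12SM and 6.50 to 6.94 in SW620, and the median difference was -0.32. Of 5 endothelium markers 0 passed in limma, and KDR (-0.37, 95% interval -0.71 to -0.03) was the only one whose unadjusted interval left out 0. In the lines' repair genes, MSH6 was lower in KM12SM (-1.51, adjusted p = 1.08e-05 from limma) and PMS2 did not pass (-0.36), while 2 other listed genes were not analysed here.

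PSMB8 and PSMB9, the immunoproteasome subunits, were clearly separated between the lines. PSMB8 had log2 signals of 9.05, 9.32 and 8.76 in KM12SM and 7.13, 7.18 and 7.12 in SW620. The SW620 arrays were nearly identical, and the lowest KM12SM array was 1.58 above the highest of them. The difference was 1.90 (standard error 0.18, 95% interval 1.52 to 2.28, adjusted p = 7.51e-07 from limma), 3.73-fold. PSMB9 had 7.85, 8.11 and 6.68 in KM12SM and 5.34, 5.19 and 5.18 in SW620. Replicate 3 of KM12SM was far below the other KM12SM arrays and still 1.34 above every SW620 array. Its difference was 2.31 (standard error 0.28, 95% interval 1.72 to 2.90, adjusted p = 1.04e-05 from limma), and without KM12SM replicate 3 it was 2.74. The PSMB9 mean of 5.24 in SW620 is close to 5.12, the 25th percentile of all probe set means. No detection calls were used, so the ratio of PSMB9 mRNA was not determined.

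Most of the remaining proteasome genes did not pass the test. PSMB10, the other inducible catalytic subunit, had 7.11, 7.24 and 6.86 in KM12SM and 7.01, 7.13 and 7.10 in SW620, a difference of -0.01 with a 95% interval of -0.37 to 0.35. The SW620 arrays lay inside the range of the KM12SM arrays. The difference between the lines was larger for PSMB8 than for PSMB10 by 1.91 and larger for PSMB9 than for PSMB10 by 2.32. Each of these was computed within arrays and had an exact permutation p = 0.10, two-sided, the smallest that 3 arrays against 3 allow. Any pair whose values do not overlap between the lines gets this p, however large or small its difference. The constitutive subunits that PSMB8, PSMB9 and PSMB10 replace, PSMB5, PSMB6 and PSMB7, had differences of -0.07, -0.02 and 0.01. Of 7 measured proteasome partners 2 were higher and 0 lower. That is 28.6% called, near the 25% of all probe sets. PSME1, a subunit of the interferon-inducible PA28 regulator, was higher by 1.31 (adjusted p = 0.000178 from limma). POMP, a chaperone of proteasome assembly, was higher by 0.68 (adjusted p = 0.00769 from limma). PSME1 had 9.51, 9.51 and 8.77 in KM12SM and 8.11, 7.96 and 7.78 in SW620. The call of POMP was lost without KM12SM replicate 1 (adjusted p = 0.0529 from limma).

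**Figure D2:**
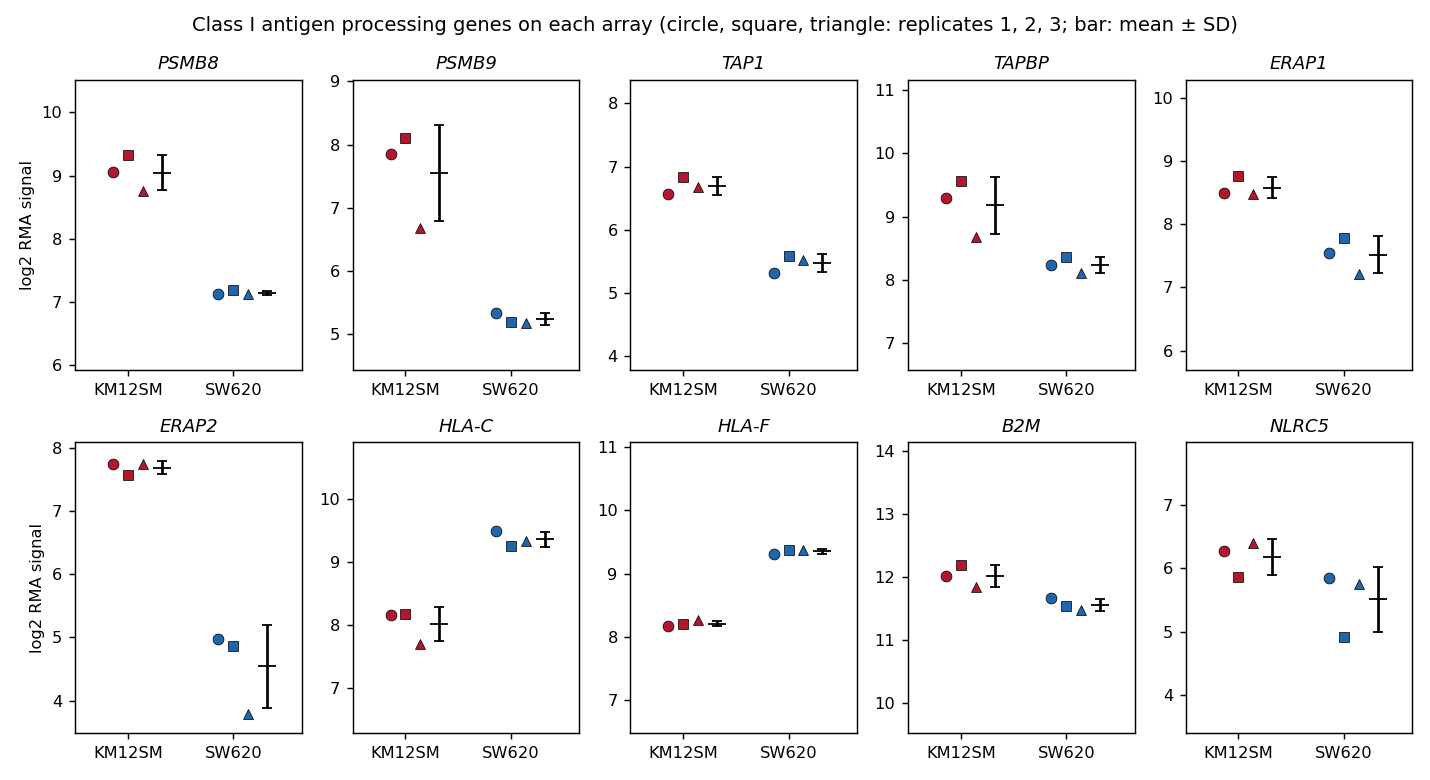
Log2 RMA signal of the 10 genes on each of the 6 arrays (circles, squares and triangles are replicates 1, 2 and 3, horizontal bars are the mean with its SD), each panel spanning the same range of log2 units. KM12SM lies above SW620 in 8 panels and below it in HLA-C and HLA-F, and the lines come closest in NLRC5, with a gap of 0.01.

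Of the transporter, only the TAP1 chain differed past the threshold. TAP1 had log2 signals of 6.57, 6.84 and 6.67 in KM12SM and 5.31, 5.58 and 5.52 in SW620. All KM12SM arrays were at least 0.99 above the SW620 arrays. The difference was 1.22 (standard error 0.17, 95% interval 0.86 to 1.58, adjusted p = 4.62e-05 from limma). The SW620 mean of 5.47 is not far above 5.12, the 25th percentile of all probe set means, and detection was not tested. TAP2, with which TAP1 forms the working transporter, had 7.41, 7.49 and 7.37 in KM12SM and 7.46, 7.66 and 7.06 in SW620, and its difference was 0.03 (95% interval -0.36 to 0.42). The difference between the lines was larger for TAP1 than for TAP2 by 1.19 (exact permutation p = 0.10, two-sided, the smallest possible). TAPBP had 9.29, 9.57 and 8.68 in KM12SM against 8.24, 8.36 and 8.10 in SW620. The arrays of the lines were apart by 0.32 only, KM12SM replicate 3 being the closest. Its difference was 0.95 (standard error 0.21, 95% interval 0.50 to 1.40, adjusted p = 0.00328 from limma), and 1.2 without KM12SM replicate 3.

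Among 5 other loading genes, 2 were higher and 0 lower, with a median difference of 0.09. The share called was 40%, where 25% of all probe sets were called. TAPBPL, which edits peptides on class I outside the loading complex, rose by 0.62 (adjusted p = 0.010) and PDIA3, a disulphide isomerase of the loading complex, by 0.60 (adjusted p = 0.0238). Their calls were not firm. TAPBPL lost its call without KM12SM replicate 1 (0.0648). PDIA3 lost its call without KM12SM replicate 1 (0.0834) or 2 (0.115) and without SW620 replicate 1 (0.0583) or 3 (0.0706), all adjusted p from limma. The lectin chaperones CALR and CANX, which fold the heavy chain and many other glycoproteins, had differences of -0.07 and 0.09.

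ERAP2 had the largest difference of the 10 genes. Its log2 signals were 7.74, 7.57 and 7.75 in KM12SM and 4.98, 4.86 and 3.79 in SW620. The KM12SM arrays were close together, SW620 replicate 3 was the lowest value, and the gap between the lines was 2.59. The difference was 3.14 (standard error 0.25, 95% interval 2.61 to 3.68, adjusted p = 1.15e-07 from limma), 8.84-fold as measured. The SW620 mean of 4.54 is under 5.12, the 25th percentile of all probe set means. No detection calls were used, and whether ERAP2 was above background in SW620 was not tested. The fold is therefore a ratio of array signals, and the ratio of mRNA was not determined. Without SW620 replicate 3 the difference was 2.77.

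ERAP1, which shares its locus with ERAP2, differed less. It had 8.50, 8.77 and 8.48 in KM12SM and 7.55, 7.79 and 7.21 in SW620, with a gap of 0.69 between the lines. Its difference was 1.07 (standard error 0.19, 95% interval 0.67 to 1.47, adjusted p = 0.000443 from limma). The difference between the lines, on these measured signals, was larger for ERAP2 than for ERAP1 by 2.08 (exact permutation p = 0.10, two-sided, the smallest possible). In the RefSeq gene table the span of ERAP2 lies inside that of ERAP1, on the opposite strand, although the starts shown above run apart, and whether the probe sets separate them was not tested. Of 5 other peptidases that trim or destroy peptides, LAP3, a cytosolic leucine aminopeptidase, was higher (0.52, adjusted p = 0.0409 from limma) and 4 did not pass. Called were thus 20% of them and 25% of all probe sets. LAP3 lost its call without any 1 of KM12SM replicates 1, 2 and 3 and SW620 replicates 1 and 3 (adjusted p = 0.0841 to 0.102).

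HLA-C and HLA-F, the heavy chains, went the other way. HLA-C, a classical class I molecule that is also the main ligand of killer cell inhibitory receptors, had log2 signals of 8.16, 8.17 and 7.70 in KM12SM and 9.48, 9.25 and 9.33 in SW620. Every SW620 array was at least 1.08 above every KM12SM array. The difference was -1.34 (standard error 0.18, 95% interval -1.73 to -0.96, adjusted p = 3.50e-05 from limma). HLA-F, a non-classical heavy chain, had 8.17, 8.20 and 8.26 in KM12SM and 9.31, 9.38 and 9.37 in SW620. The replicates were within 0.09 of each other in both lines, and the gap between the lines was 1.05. Its difference was -1.14 (standard error 0.16, 95% interval -1.48 to -0.80, adjusted p = 5.11e-05 from limma).

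The non-classical heavy chains HLA-E and HLA-G did not pass the test. HLA-E, the ligand of the natural killer receptor CD94 with NKG2A, had 7.53, 7.55 and 6.53 in KM12SM and 7.57, 7.40 and 7.50 in SW620. Only KM12SM replicate 3 was apart. HLA-G had a difference of -0.42 (95% interval -0.80 to -0.03, adjusted p = 0.111 from limma). The difference of HLA-C was more negative than that of HLA-E by 1.06, and that of HLA-F by 0.86 (exact permutation p = 0.10 for each, two-sided, the smallest possible). Within arrays, HLA-F minus HLA-E was 0.64 to 1.73 in KM12SM and 1.74 to 1.98 in SW620, so this pair barely separated the lines. The upper KM12SM value came from replicate 3. Of 6 measured class I and class I-like genes beside the members, 16.7% were called, where 25% of all probe sets were. HFE, which binds the transferrin receptor, was higher (0.54, adjusted p = 0.0255 from limma), 0 were lower and 5 did not pass. Removing KM12SM replicates 2 or 3 ended the call of HFE, as did removing SW620 replicates 1 or 2, with adjusted p from 0.0590 to 0.0923 in limma. Class I heavy chain genes are close copies of each other and are highly polymorphic. How far each probe set reads its own gene and the alleles of these lines was not tested.

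B2M, the light chain shared by all class I molecules, had log2 signals of 12.02, 12.20 and 11.84 in KM12SM and 11.67, 11.54 and 11.48 in SW620. KM12SM was above in every array, by 0.17 at the closest. The difference was 0.46 (standard error 0.17, 95% interval 0.09 to 0.82) and did not pass (adjusted p = 0.0633 from limma). It passed without KM12SM replicate 3 (0.55, adjusted p = 0.0372). The light chain thus had the opposite sign to both heavy chains. Within arrays, the difference of B2M exceeded that of HLA-C by 1.80 and that of HLA-F by 1.60, and the difference of TAP1 exceeded that of HLA-C by 2.57 (exact permutation p = 0.10 for each, two-sided). In all, 9 such pairs were compared, and the p adjusted over them was 0.10 for each. Their genes came from the members and lists, chosen with earlier results of these data known, so these p-values lend no support.

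NLRC5 was the weakest call. It had 6.28, 5.86 and 6.41 in KM12SM and 5.85, 4.92 and 5.76 in SW620. SW620 replicate 2 was far below the other SW620 arrays, and the lines were apart by 0.01. The difference was 0.67 (standard error 0.24, 95% interval 0.17 to 1.18, adjusted p = 0.0485 from limma). Without SW620 replicate 2 it was 0.38 (adjusted p = 0.238). Removing KM12SM replicate 1 (0.132), KM12SM replicate 3 (0.160) or SW620 replicate 3 (0.0541) also ended the call.

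Among 11 measured transcription regulators of class I genes, 3 were higher and 0 lower. The share called was 27.3%, near the 25% called over all probe sets. IRF2, which binds interferon response elements, had 7.38, 7.38 and 7.44 in KM12SM and 6.0, 6.61 and 5.57 in SW620, a difference of 1.34 (standard error 0.22, adjusted p = 0.000262 from limma). NFKB1, the p105 precursor of an NF-kappaB subunit, had 8.71, 8.79 and 8.50 against 7.52, 7.32 and 7.29, a difference of 1.29 (standard error 0.17, adjusted p = 2.64e-05 from limma). For both, every KM12SM array was above every SW620 array. RFX5, the DNA-binding partner of NLRC5 at the X box, rose by 0.59 (adjusted p = 0.0332). The adjusted p of RFX5 from limma was 0.160 and 0.106 without KM12SM replicates 1 and 2, and 0.0546 and 0.105 without SW620 replicates 2 and 3, so that each of these removals ended its call. IRF1, the activator that carries the interferon response to these promoters, had 7.17, 7.26 and 6.66 against 6.85, 7.0 and 6.43 and did not pass (0.27, 95% interval -0.17 to 0.71).

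Over the 5 lists of other pathway genes, 34 of 40 were measured, and 9 were higher, 0 lower and 25 not called. The share called was 26.5%, all of it higher, where 12.6% of all probe sets were higher and 12.4% lower. The median difference was 0.14. The count of 9 was 4 without KM12SM replicate 1 and 5 without KM12SM replicate 2. Most class II presentation genes did not pass either. Of 9 measured genes, HLA-DQB1 was lower in KM12SM (-0.56, adjusted p = 0.0355 from limma), and 8 did not pass. That is 11.1% called, where 25% of all probe sets were. The call of HLA-DQB1 ended when KM12SM replicates 1 or 2 were removed, and likewise SW620 replicates 2 or 3 (0.0811 to 0.147). The class II transactivator CIITA had mean log2 signals of 5.10 and 5.12, CD74 6.16 and 6.32, and HLA-DRA 3.60 in both lines.

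**Figure D3:**
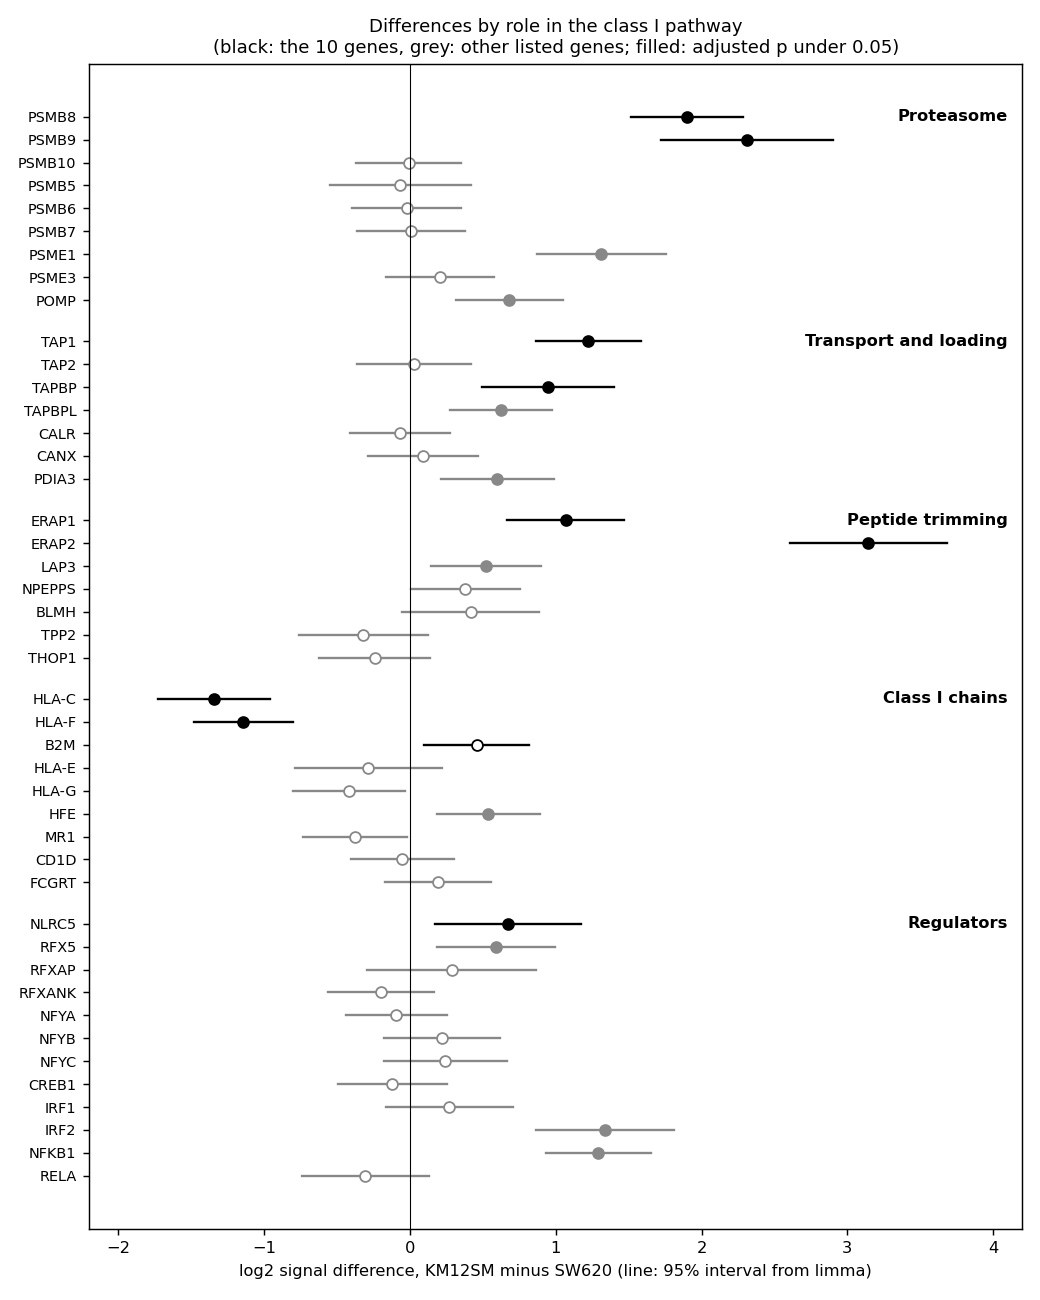
Log2 signal difference (KM12SM minus SW620) with its 95% interval from limma for the 10 genes (black) and the other measured pathway genes (grey), ordered by role, with filled points for an adjusted p under 0.05. ERAP2 is the farthest to the right at 3.14, HLA-C and HLA-F are the filled points on the left, and PSMB10 and TAP2 are at -0.01 and 0.03.

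The 6 members that lie in the MHC on chromosome 6 differed in both directions, and their position cannot be told apart from their role. Between HLA-F and TAPBP, the outermost of them in the RefSeq gene table, 100 genes had a named probe set. HLA-F and HLA-C of the class I part were lower, and PSMB8, TAP1 and PSMB9 of the class II part and TAPBP beyond it were higher. TAP2, PSMB8, the antisense transcript PSMB8-AS1, TAP1 and PSMB9 are consecutive among these genes, with differences of 0.03, 1.90, 0.55, 1.22 and 2.31. The difference between the lines thus did not extend past the threshold to TAP2, the immediate neighbour of PSMB8. PSMB8-AS1 did not pass (adjusted p = 0.0785 from limma).

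Of the 94 neighbours in this span, 3 were higher, 14 lower and 77 not called, 18.1% in all, where 12.6% of all probe sets were higher and 12.4% lower. Their median difference was -0.16. The higher ones were TRIM31, a ubiquitin ligase (2.62), RNF39 (0.75) and the non-coding HCP5 (0.72). In the order of genes, TRIM31 and RNF39 lie between HLA-F and HLA-C, which were lower, and HCP5 lies soon after HLA-C. The largest falls were those of the heat shock gene HSPA1A (-3.03), the immediate early gene IER3 (-1.50), SNORD52 (-1.21) and ATAT1, a tubulin acetyltransferase (-1.16). RNF39 did not pass when replicate 1 or 2 of either line was removed (limma, adjusted p = 0.0536 to 0.0867). The count of lower neighbours was 8 without KM12SM replicate 1, and that of higher ones 5 without SW620 replicate 3.

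**Figure D4:**
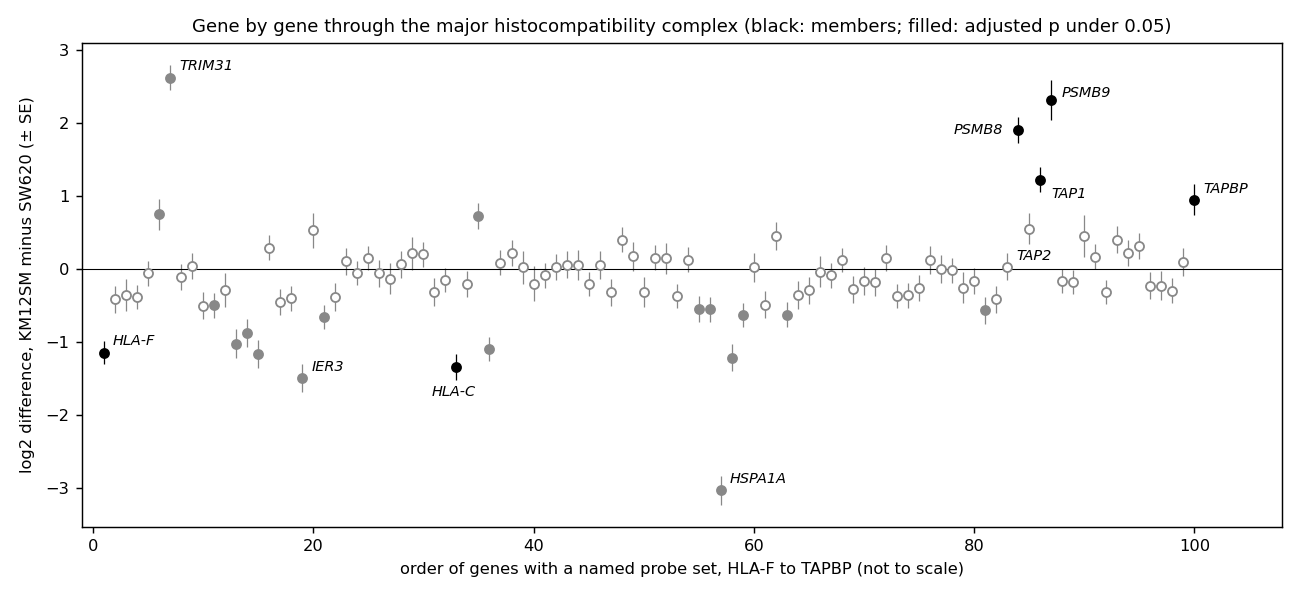
Log2 signal difference (KM12SM minus SW620, with its standard error) of the 100 genes with a named probe set from HLA-F to TAPBP, in genomic order and not to scale, with the 6 members in black and filled points for an adjusted p under 0.05. PSMB8, TAP1 and PSMB9 rise together above 1 while TAP2 beside them stays at 0.03, and HLA-F and HLA-C are below -1.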

How the data were processed

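Per the labels and the methods, total RNA of KM12SM and SW620 was hybridised to Clariom S arrays, 3 per line. The authors deposited log2 RMA values from Transcriptome Analysis Console (version not given in the sources used here), rounded to 2 decimals, between 2.36 and 13.79, and these were used as deposited. Arrays give no counts, and their number limits the precision (median standard error 0.18). Of 21448 probe sets, 17709 have 1 gene symbol, 0 several and 3739 are unnamed here. Columns outside the mapping numbered 0.

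KM12SM minus SW620 was fitted over all probe sets with lmFit and eBayes of limma 3.58.1 in R 4.3.3, two-sided, without filter or block. The p-values were adjusted after Benjamini and Hochberg, and the code was tested on simulated data. The members, lists and motifs were chosen with earlier results of these data known. Named were the 10 members, up to 4 called genes of each list (class I-like, loading, proteasome, peptidase, regulator, class II, colon epithelium, leukocyte, fibroblast, endothelium and mismatch repair genes) and of the MHC neighbours in each direction with the largest differences, and 8 fixed genes, of which 2 were not analysed here. Other genes were named after their values were seen. Within-array pairs, drawn from these members and lists, were tested by exact permutation. Promoter sequences are from RefSeq (GRCh38.p14). The alternatives were quantile normalization, median centring, a filter on dim probe sets, a replicate block, other eBayes options, array weights, a 2-sample t-test, treat and leaving out arrays. The methods name limma for these arrays and the t-test for gene comparisons in general, so the latter is called the methods' t-test. A fit without both replicates 3 was chosen after seeing the data.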

Additional observations from a re-analysis of the deposited data

How the results depend on the processing

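Over 15 alternatives, the calls of PSMB8, PSMB9, TAP1, ERAP1, ERAP2, HLA-C and HLA-F were kept in each, 7 of the 10 members. With any 1 array left out, 6 to 7 members were higher and 2 lower. TAPBP lost its call under the methods' t-test (adjusted p = 0.110). NLRC5 lost it in 9 alternatives and B2M gained it in 6, with adjusted p from 0.0104 to 0.290 and from 0.00941 to 0.483. The methods' t-test gave 7 higher and 2 lower members at an unadjusted p under 0.05, and 5 and 2 after Benjamini-Hochberg adjustment.

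Among 38 named genes, 497 of 569 values under alternatives stayed on their side of the threshold, 66 lost the call, 6 gained it and 0 reversed. Higher pathway genes numbered 4 under the methods' t-test, 3 under treat against a fold of 1.2 and 4 to 7 with 1 array left out, and lower ones 3 with array weights and 1 without replicate 3 of both lines. Higher MHC neighbours numbered 5 with the replicate block, 12 with array weights, 1 under treat, 6 without replicate 3 of both lines and 2 to 5 with 1 array left out. Lower ones numbered 33 with array weights, 7 under the t-test, 7 under treat and 8 to 13 with 1 array left out. Over all probe sets, array weights called 5050 higher and 5028 lower, the t-test 1499 and 1539, and treat 1634 and 1570, with 2102 to 2688 higher and 1952 to 2902 lower when 1 array was left out. The fit of the array weights stopped before its tolerance was reached. The cause of these changes, those under array weights included, was not tested.

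Same-numbered arrays of the lines had deviations that correlated at 0.0577, 0.0951 and 0.149. Replicate 2 of KM12SM correlated more with replicate 1 of SW620 (0.100) than with replicate 2. Replicate 3 of each line correlated negatively with replicates 1 and 2 of the other (-0.142 to -0.0450). Whether the replicates numbered 3 shared a processing step was not tested. The methods name no pairs or block, so the main fit used none. The replicate block called 2888 probe sets higher and 2793 lower, with 7 members higher and 2 lower. Averaging probe sets was not run, since 0 named genes had more than 1.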
